A study of Homo sapiens with 2 samples.

Results

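The genes described here carry glucose from the plasma membrane to lactate: glucose transporters, the enzymes of glycolysis with their isoenzymes side by side, the enzymes that set the level of the activator of phosphofructokinase, and lactate transporters. Members were matched by symbol to probes with exactly 1 gene symbol, and probes were averaged per gene. Of 31 listed genes, 28 were measured in this way, out of 18417 genes on the array. PGAM1, SLC16A1 and SLC16A3 were not analysed here, so lactate export through the main SLC16A transporters is not covered. The genes were chosen by pathway, with the differences between these same arrays already known, so that difference is given as a description and without a test.

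The study compared HepG2, an established line of hepatoma cells, with and without silica. The control group was 1 array of HepG2 cells without a stated particle treatment, and the SiO2-NP group was 1 array of HepG2 cells exposed to amorphous silica nanoparticles at 100 mg/L for 24 h. Both groups shared the line and the MEM medium at 37oC with 5% CO2, and no allele or transgene is named for either. HepG2 is a tumour line, so its glycolytic isoenzymes need not match those of liver tissue.

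Glycolysis splits glucose into pyruvate and yields ATP and NADH. Several steps are run by isoenzymes from separate genes whose balance differs between liver, muscle, brain and tumours. Normal hepatocytes rely on the transporter SLC2A2 and on the liver forms PFKL and PKLR, whereas hepatoma cells often use the forms HK2, ALDOA and PKM. Many glycolytic genes are known targets of the hypoxia-inducible factor HIF1A.

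Every value below is a log2 intensity from 1 array, and every difference is SiO2-NP minus control, so a difference of 1 means a doubling and no value has a replicate error. Whether a difference exceeds the variation between cultures cannot be told from 1 array per group. The log2 intensities of the arrays had medians of 6.65 (control) and 6.69 (SiO2-NP). A level filter was set at the median gene mean, 7.26, and kept 9209 genes, 21 of the 28 measured genes of glycolysis among them. It is a level, not a detection call. Of the hepatocyte markers, 8 of 8 measured passed it (HNF4A was not analysed here), as did 1 of 4 leukocyte, 0 of 4 endothelial and 1 of 5 fibroblast markers. The reference genes ACTB and TBP differed by -0.00 and -0.01.

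The pathway did not move as a block between these arrays. ALDOC and the glucose transporter SLC2A3 were the only genes of the 21 at least 1.5-fold higher, and none was 1.5-fold lower. Over all 9209 genes above the filter, 0.141% passed that threshold upward and 0.25% downward. At 2-fold higher ALDOC alone was left, and it was also the only 1 of all 9209 genes (0.0109%). After centring each array on its median ALDOC differed by 0.999 and fell just short of 2-fold. ALDOC and SLC2A3 were each read by 1 probe. With the threshold at 1.2-fold the count was the same 2 higher and 0 lower, beside 2.99% and 7.53% of all genes above the filter. Of the other 19 genes, 13 differed by less than 0.1 and 6 by 0.1 to 0.2. The 21 had a median difference of 0.06, beside -0.03 over all genes above the filter, and 13 of them were above the control, where 40.2% of all those genes were. Without ALDOC and SLC2A3 the median was 0.03, and leaving out the 2 highest genes could not have raised it. The count of 13 rested partly on differences near 0 and was 12 after centring each array on its median, beside 36.9% of all genes above the filter. It was 17 under both a running median by level and quantile normalization, where the share of all genes was 49.8% and 53.5%.

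**Figure D1:**
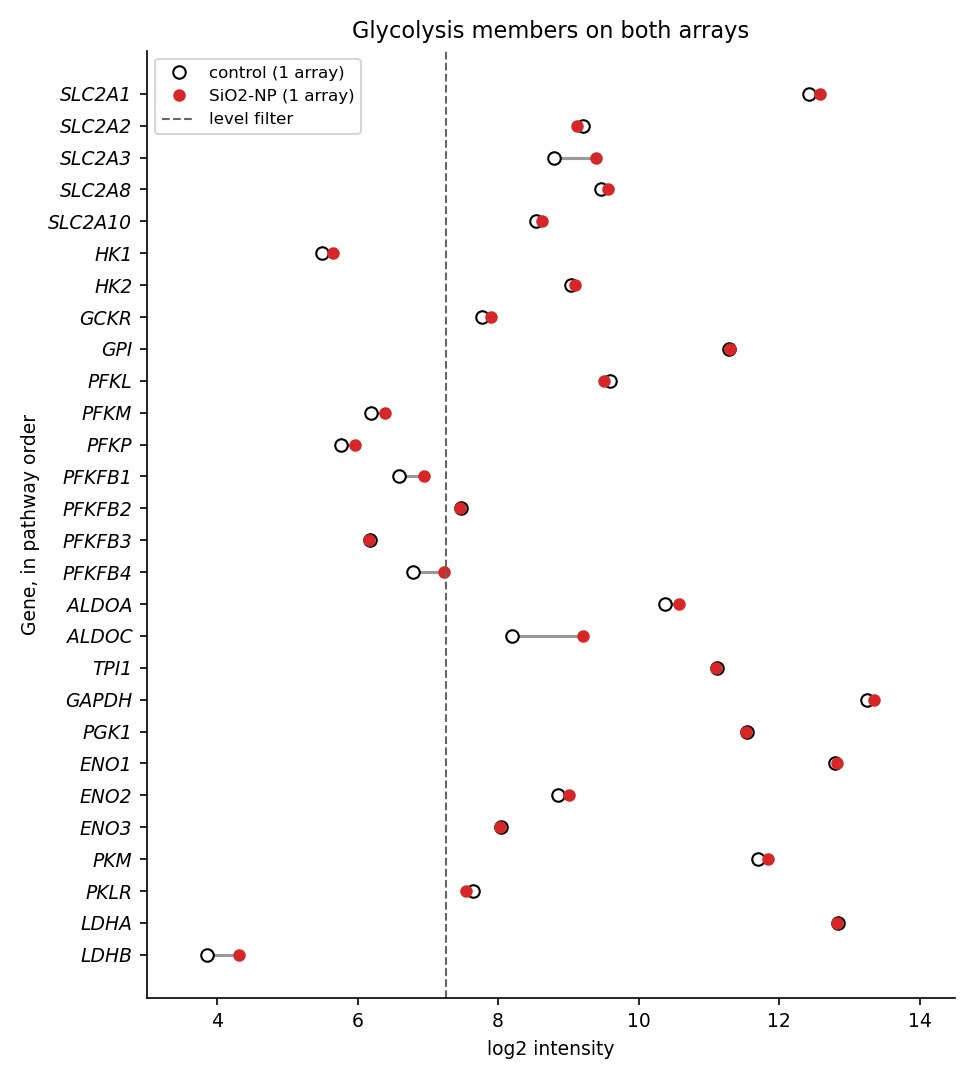
Log2 intensity (horizontal axis) of the 28 measured genes in pathway order, with the control array as an open circle and the SiO2-NP array as a filled one; the dashed line is the level filter at 7.26. ALDOC (8.19 and 9.20) and SLC2A3 (8.80 and 9.39) show the widest gaps, and most pairs of circles overlap.

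Promoters are shown for 4 genes, picked after their values were seen, to set 2 genes that were higher on the SiO2-NP array beside 2 that were not. Each is the 250 bases before the transcription start in RefSeq's GRCh38.p14, written 5' to 3' on the gene's strand. Capitals mark ACGTG on either strand, the core of the hypoxia response element. ALDOC (chr17:28576896-28577145, minus strand) and PFKFB4 (chr3:48556804-48557053, minus strand) differed by 1.01 and 0.43, the latter below the level filter. PGK1 (chrX:78103998-78104247, plus strand) and ENO1 (chr1:8878687-8878936, minus strand) differed by -0.01 and 0.03.
ALDOC: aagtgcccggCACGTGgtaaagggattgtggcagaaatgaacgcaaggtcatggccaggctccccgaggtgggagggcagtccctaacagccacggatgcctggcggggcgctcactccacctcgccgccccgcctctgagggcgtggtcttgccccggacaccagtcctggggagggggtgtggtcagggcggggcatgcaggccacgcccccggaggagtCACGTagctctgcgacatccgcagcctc
PFKFB4: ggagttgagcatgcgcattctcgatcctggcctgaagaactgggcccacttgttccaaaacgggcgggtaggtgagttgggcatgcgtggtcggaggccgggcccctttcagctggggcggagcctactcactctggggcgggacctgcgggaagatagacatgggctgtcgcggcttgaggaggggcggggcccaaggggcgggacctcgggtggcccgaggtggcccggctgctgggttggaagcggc
PGK1: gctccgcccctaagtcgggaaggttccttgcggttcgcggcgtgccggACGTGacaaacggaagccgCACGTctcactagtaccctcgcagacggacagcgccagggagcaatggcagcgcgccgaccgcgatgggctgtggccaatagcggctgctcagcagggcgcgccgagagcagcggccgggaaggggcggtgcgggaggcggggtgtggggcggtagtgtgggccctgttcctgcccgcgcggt
ENO1: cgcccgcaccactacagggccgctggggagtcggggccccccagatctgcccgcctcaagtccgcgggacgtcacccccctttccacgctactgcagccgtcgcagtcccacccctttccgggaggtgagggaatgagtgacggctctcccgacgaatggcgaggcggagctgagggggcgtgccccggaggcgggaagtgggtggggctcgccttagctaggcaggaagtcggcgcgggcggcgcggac
The ALDOC window held ACGTG on both strands of an E-box (CACGTG) that begins 240 bases before the start, and again 28 bases before the start. The PGK1 window held 2 matches, while those of PFKFB4 and ENO1 held none. The genes were picked to show each of these cases, so nothing about the letters and the differences follows from the 4 windows.

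Over all windows of these genes, ACGTG was in 18 of 56 (32.1%), beside 18.5% of all 35116 windows of the same 250 bases before the start. The 56 windows belong to 28 genes; PFKFB2, SLC2A3 and SLC16A1 had no entry, PGAM1 and SLC16A3 had one, and several genes have overlapping windows. The E-box CACGTG, which contains ACGTG on both strands, was in 7 windows (12.5%, beside 6.34%). The GC box GGGCGG was in 31 (55.4%, beside 42.6%), and TATAAA in 3 (5.36%, beside 10.7%). The window of LDHA that starts at chr11:18394313 held 5 ACGTG matches, with its 2 E-boxes counted on both strands, and LDHA differed by -0.01. A match of letters is a description and not a bound site.

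Glucose enters the cell through the SLC2A family, and SLC2A3 was the transporter with the widest difference. SLC2A3, the high-affinity carrier known from neurons, had a log2 intensity of 8.80 in the control and 9.39 after SiO2-NP, a difference of 0.59 (1.504-fold), which is the 13th highest of the 9209. It sat on the threshold: with each array centred on its median the difference was 0.58 and no longer reached 1.5-fold (0.585). SLC2A14, a close paralogue outside the list, was 7.33 and 7.82, a difference of 0.50 (1.41-fold). Whether the probes of these similar genes also read each other's transcripts was not tested, so SLC2A14 is not given as a separate reading.

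The remaining transporters differed much less. SLC2A1, the widespread carrier and a known HIF1A target, was 12.42 and 12.58, a difference of 0.16. SLC2A2, the low-affinity carrier of hepatocytes, was 9.21 and 9.13, a difference of -0.08. SLC2A8, found on intracellular membranes, was 9.47 and 9.57, a difference of 0.10. SLC2A10 was 8.53 and 8.62, a difference of 0.08. Each of these 4 stayed within 0.2 of the control. From SLC2A2 to SLC2A3 the differences of the 5 transporters thus spanned 0.67. Among the other SLC2A genes above the filter, SLC2A6 differed by 0.29 (1.22-fold), SLC2A9, a urate transporter, by -0.21, SLC2A4, the insulin-responsive carrier, by -0.10 and SLC2A13, a myo-inositol transporter, by -0.07.

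Hexokinases trap glucose by phosphorylation, and neither differed by much. HK2, the inducible form, was 9.04 and 9.10, a difference of 0.06. HK1 was 5.50 and 5.65, below the filter, a difference of 0.15. GCKR, a regulatory protein of glucose phosphorylation in liver, was 7.77 and 7.89, a difference of 0.13. HKDC1, a further hexokinase gene outside the list, differed by 0.01. GPI, which turns glucose phosphate into fructose phosphate, was 11.29 on both arrays and differed by 0.01, which became -0.00 after centring on the array medians.

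Phosphofructokinase commits sugar to glycolysis. PFKL, the liver form and the only phosphofructokinase above the filter, was 9.60 and 9.51, a difference of -0.09. The muscle form PFKM (6.20 and 6.38) and the platelet form PFKP (5.77 and 5.96) were below it and differed by 0.19 and 0.20. The signs differed between PFKL and the dim forms, but genes below the filter had a positive difference in 64.3% of 9208 cases on these arrays, beside 40.2% above it.

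The PFKFB enzymes make and break down the sugar bisphosphate that activates phosphofructokinase, and they did not move together. PFKFB4 was 6.79 in the control and 7.22 after SiO2-NP, a difference of 0.43 (1.35-fold). PFKFB1, the liver form, was 6.58 and 6.94, a difference of 0.35 (1.28-fold). PFKFB2 was 7.47 and 7.45 and PFKFB3, the inducible form with high kinase activity, was 6.18 and 6.16, differences of -0.01 and -0.02. Only PFKFB2 passed the level filter. PFKFB4, with a mean of 7.01, lay just under it. Of all genes below the filter 13.5% were at least 1.2-fold higher, beside the 2.99% above it, and PFKFB1, PFKFB4 and LDHB were the 3 of 7 dim members to pass that threshold.

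Aldolase splits the sugar bisphosphate into triose phosphates, and its isoenzymes showed the widest gap of any step. ALDOC, the form known from brain, was 8.19 in the control and 9.20 after SiO2-NP, a difference of 1.01 (2.02-fold), the highest of the 9209 genes above the filter (rank 1). It was 1.06 under both a running median by level and quantile normalization, and 0.999 after centring on the array medians. ALDOA, the muscle and widespread form, was 10.37 and 10.57, a difference of 0.20 (1.148-fold), ranked 539. The gap between the isoenzymes was 0.81.

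**Figure D2:**
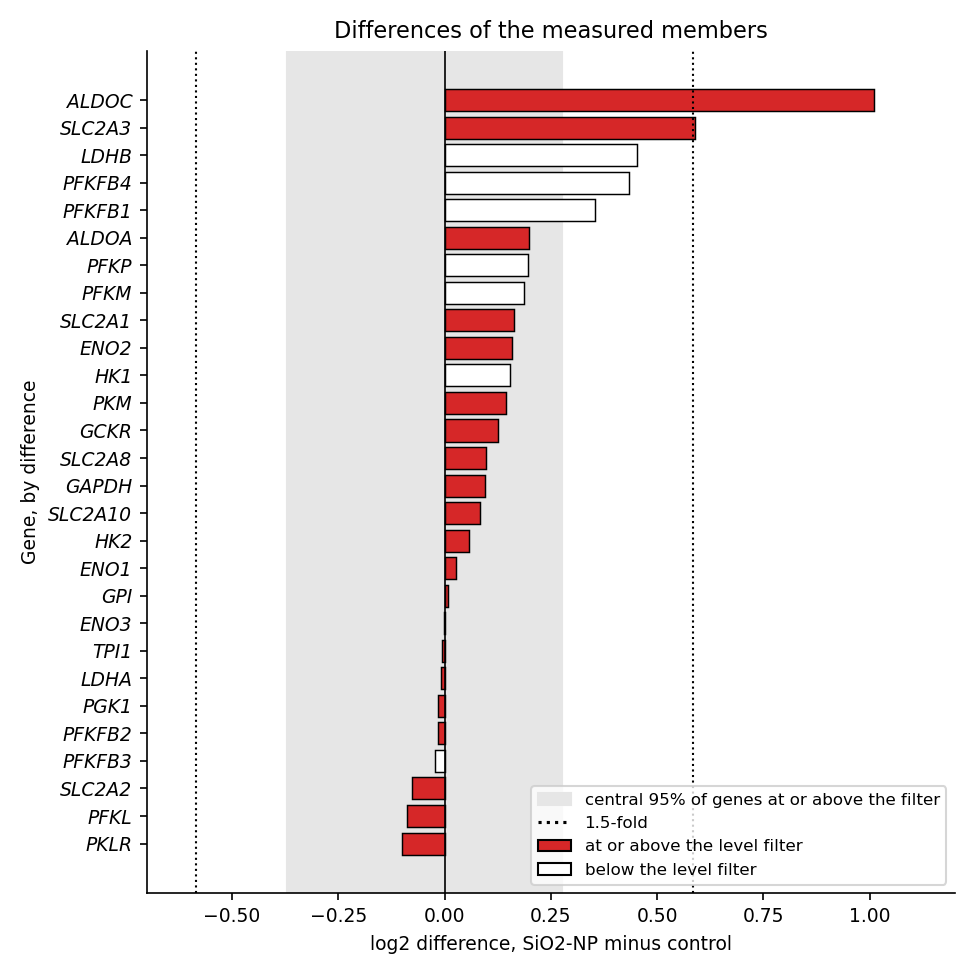
Difference in log2 intensity, SiO2-NP minus control (horizontal axis), for each of the 28 measured genes, ordered by size; filled bars are genes at or above the level filter, open bars genes below it, the shaded span is the central 95% of all 9209 genes above the filter (-0.37 to 0.28), and dotted lines mark 1.5-fold. ALDOC and SLC2A3 lie past the line, and PFKFB1, PFKFB4 and LDHB are open bars outside the shaded span. That span does not describe genes below the filter. Against their own quartiles of level, PFKFB1 and LDHB lay inside the central 95% and PFKFB4 above it.

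The enzymes from triose phosphate to phosphoglycerate were near 0 on these arrays. TPI1, which interconverts the triose phosphates, had 2 probes, at 10.24 on both arrays and at 11.98 and 11.97, with a mean difference of -0.01. GAPDH, the oxidising step and a common reference transcript, was 13.25 and 13.35, a difference of 0.10. PGK1, the first step that makes ATP, was 11.54 and 11.52, a difference of -0.01. The signs of TPI1 and PGK1 turned positive with a running median by level (0.02 and 0.01) and with quantile normalization (0.04 and 0.03). BPGM, which diverts phosphoglycerate into a side product, was outside the list and differed by -0.37 (7.53 and 7.16).

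Among the enolases ENO2 had the widest difference. ENO2, the neuronal form, was 8.85 and 9.01, a difference of 0.16. The widespread form ENO1 was 12.79 and 12.82 and the muscle form ENO3 was 8.03 on both arrays, differences of 0.03 and -0.00, the latter positive after centring on a running median (0.03). The span from ENO3 to ENO2 was 0.16.

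Pyruvate kinase makes the last ATP, and its genes lay on opposite sides of the control. PKM, the form of tumours and muscle, was 11.69 and 11.84, a difference of 0.15. PKLR, the liver and red cell form, was 7.64 and 7.54, a difference of -0.10, which was the lowest of the 21 genes above the filter. Both kept their sign under the 3 other scalings, and the gap between them was 0.25. The probe values do not separate the splice forms of PKM.

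Lactate dehydrogenase turns pyruvate into lactate and renews NAD. LDHA, the subunit that dominates in muscle and tumours, was 12.84 and 12.83, a difference of -0.01, which turned to 0.02 with a running median by level and 0.03 with quantile normalization. LDHB, the heart subunit, was 3.86 and 4.31, a difference of 0.45 (1.37-fold) at a level far below the filter. The LDHA transcript is also known as a HIF1A target, as is PGK1. Other genes of the list, ALDOC, SLC2A3 and PFKFB4 among them, are not labelled either way here. These labels therefore do not divide the list into targets and others. BSG, the chaperone that carries lactate transporters to the membrane, differed by 0.05.

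Read by level, 3 of the 28 genes lay outside the central 95% of the genes in their own quartile of mean level, and 25 lay inside. ALDOC lay above the upper bound of quartile 3 (0.30), SLC2A3 above that of quartile 4, the brightest (0.24), and PFKFB4 just above that of quartile 2 (0.43). LDHB, at 0.45, was inside the bounds of the dimmest quartile (-0.36 to 0.46), and PFKFB1, at 0.35, was inside those of quartile 2. ALDOA, at 0.20, and PKM, SLC2A1 and ENO2 were inside those of the brightest quartile (-0.34 to 0.24), which held 15 of the 28.

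**Figure D3:**
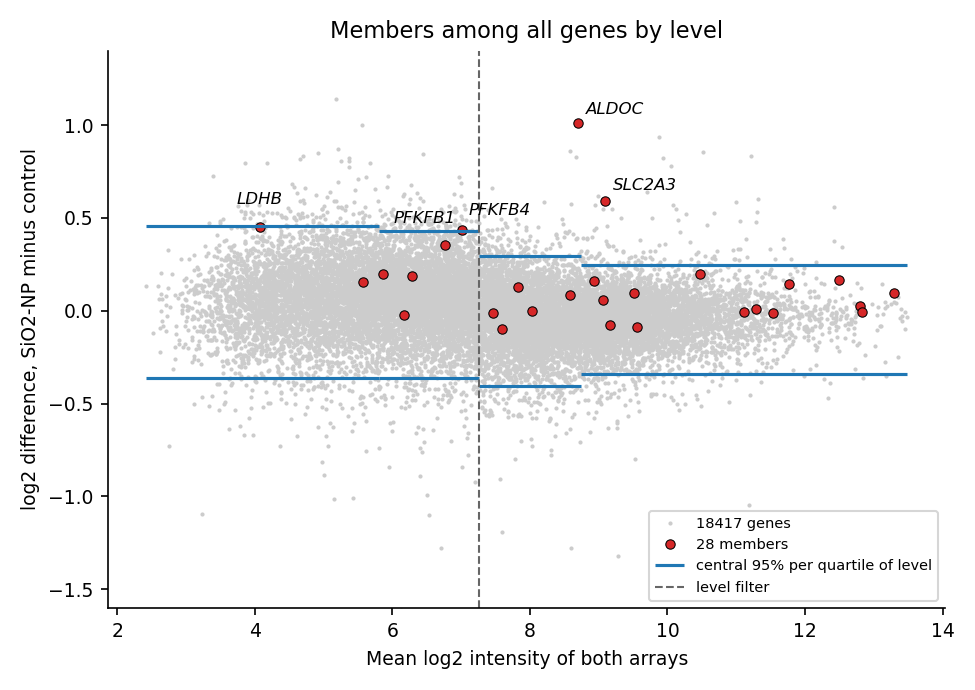
Difference in log2 intensity (vertical axis) against the mean log2 intensity of both arrays (horizontal axis) for 18417 genes (grey) and the 28 genes of glycolysis (red); blue lines bound the central 95% of genes in each quartile of level, and the dashed line is the level filter. ALDOC and SLC2A3 stand clear above the lines, PFKFB4 touches its line at 0.43, and LDHB lies just inside at 0.45.

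**Figure D4:**
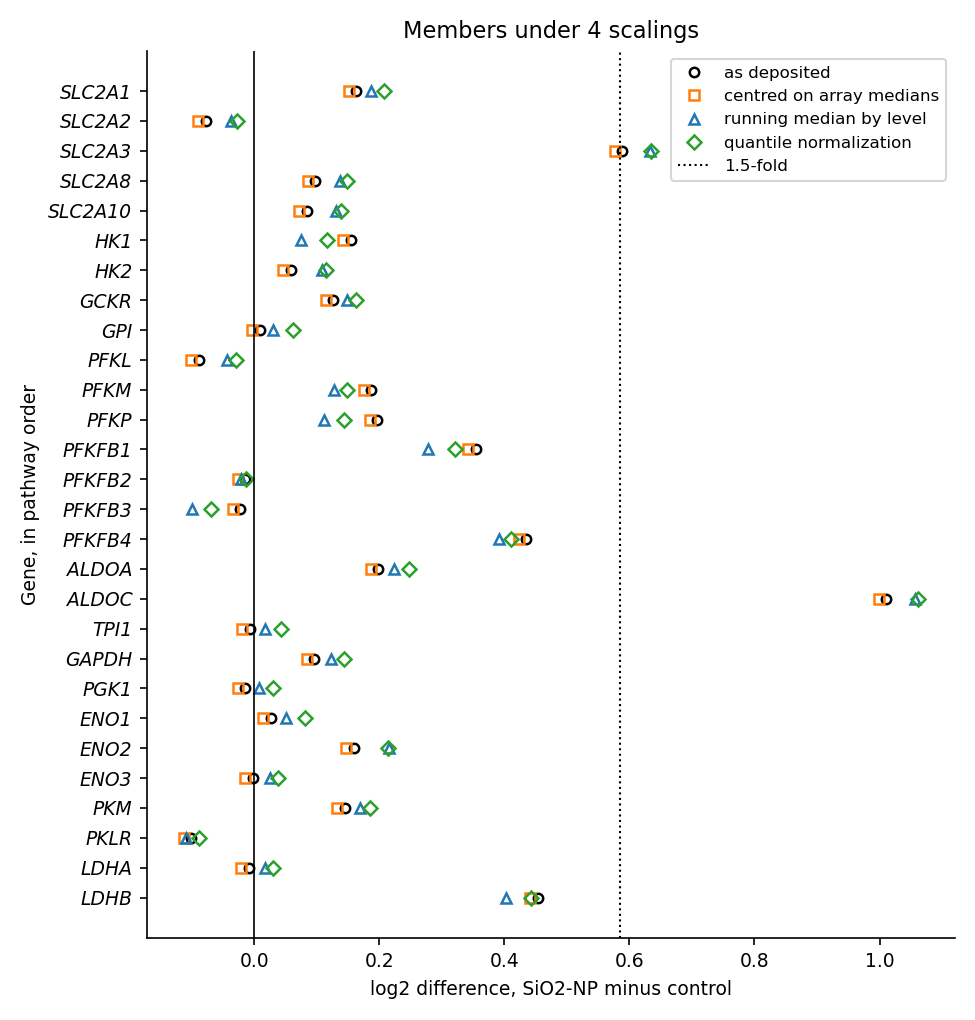
Difference in log2 intensity (horizontal axis) of each gene as deposited and after centring on the array medians, subtraction of a running median by level, and quantile normalization; the dotted line marks 1.5-fold. ALDOC stays between 0.999 and 1.06, SLC2A3 falls short of the dotted line only after centring on the array medians (0.58), and GPI, TPI1, PGK1, ENO3 and LDHA change sign.

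Branches that leave or feed glycolysis were read from lists drawn up with earlier results of these data known. A list labelled other isoenzymes of the same steps also held related genes, and PGAM5, LDHD and TIGAR in it are not isoenzymes of these steps. Of its 6 genes above the filter, 0 were at least 1.2-fold higher and 1 (BPGM) was 1.2-fold lower. The list had a median of -0.02, and 0.00 after quantile normalization. ADPGK, PGAM5, LDHD and TIGAR differed by -0.07, 0.06, -0.04 and 0.01. The 5 other SLC2A genes had 2 at least 1.2-fold higher (SLC2A14 and SLC2A6) and 0 lower, with a median of -0.07. Over all genes above the filter the shares were 2.99% and 7.53%. SLC2A14 is in this count, although whether its probes and those of SLC2A3 also read each other's transcripts was not tested. The 2 SLC16A and chaperone genes above the filter, SLC16A10 (-0.03) and BSG, did not pass 1.2-fold.

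In mitochondrial pyruvate entry, 0 of 13 genes passed 1.2-fold in either direction, with a median of -0.07. Of the 13, 9 were below the control (7 under quantile normalization), while the genes with the widest differences were higher. PDK1, a kinase that switches off pyruvate dehydrogenase, differed by 0.18, its opposing phosphatase PDP1 by 0.15 and pyruvate carboxylase (PC) by 0.14. The pentose phosphate list had a median of -0.11 over 10 genes, with 8 below the control and 1 past 1.2-fold. Under quantile normalization 6 of the 10 were below. RBKS, ribokinase, differed by -0.46 (8.44 and 7.98), PRPS2, which makes the ribose donor of nucleotides, by -0.24 and RPE by -0.20.

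Glycogen genes had a median of -0.02 over 13 genes, which became 0.01 with a running median by level and 0.03 with quantile normalization, and none passed 1.2-fold. PYGL, liver glycogen phosphorylase, differed by 0.25, and the glycogenins GYG1 and GYG2 by -0.16 and -0.15. In the list for fructose, galactose and mannose, the median was -0.05, with 6 of 7 genes below the control (5 under quantile normalization). KHK, which starts fructose use in liver, was 9.27 and 8.92, a difference of -0.36 (1.28-fold lower), GALK1 differed by -0.25 and GALT by -0.08.

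The hexosamine branch had a median of -0.06, with 5 of 6 genes below the control (3 under quantile normalization), and GNPNAT1 (-0.29) was 1.2-fold lower, while GNPDA1 and GFPT1 differed by -0.12 and 0.08. In the serine and glycerol branches, the median was -0.12 and 5 of 6 genes were below, also under the 3 other scalings. GPD1, which draws triose phosphate off towards glycerol, differed by -0.75 (8.69 and 7.94), and the serine enzymes PHGDH and PSAT1 by -0.19 and -0.15. On the deposited scale, all genes above the filter had a median of -0.03, with 40.2% higher than the control, and 2.99% passed 1.2-fold upward and 7.53% downward. Under quantile normalization their median was 0.01, with 53.5% higher.

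Among 16 regulators of glycolytic genes, 3 were at least 1.2-fold higher and 0 lower, beside 2.99% and 7.53% of all genes above the filter. This list too was drawn up with earlier results of these data known, so the count only describes it. The median was 0.03, with 9 genes above the control and 7 below. BHLHE40, a repressor that is a known HIF1A target, differed by 0.83 (8.26 and 9.09), and SREBF2 and SREBF1, the regulators of sterol and fatty acid synthesis, by 0.50 (9.08 and 9.57) and 0.29 (8.07 and 8.35). HIF1A itself, named after its value was seen, was 11.75 and 11.81, a difference of 0.06. Transcript levels do not report the HIF1A protein, which is set by its stability.

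**Figure D5:**
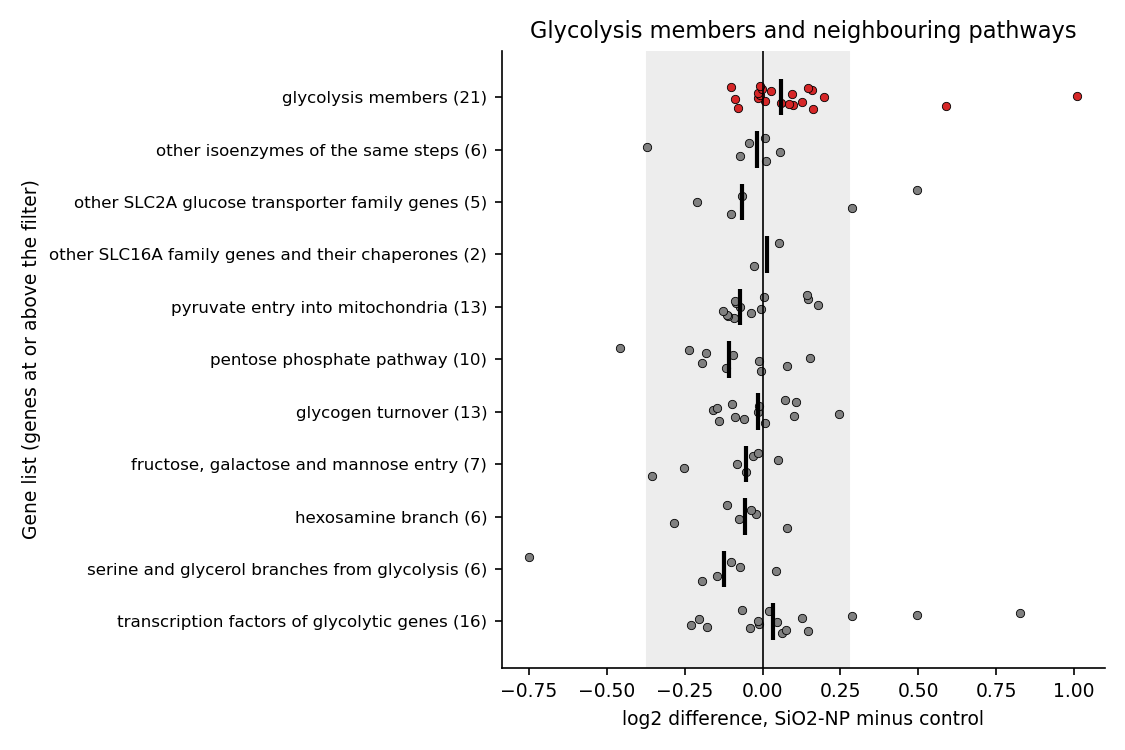
Difference in log2 intensity (horizontal axis) of each gene at or above the level filter, for the 21 genes of glycolysis (red) and 10 lists of neighbouring genes (grey), with the number of genes in brackets, a black bar for the median and the central 95% of all genes above the filter shaded. The red points lie close to 0 apart from ALDOC (1.01) and SLC2A3 (0.59), and the widest negative point is GPD1 (-0.75).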

How the data were processed

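Expression was measured on 2 Affymetrix arrays of 33297 probes (transcript clusters), 1 per group. The authors deposited 1 log2 intensity per probe and array; values from 2.08 to 14.4 show the log2 scale. Per the submitters' processing notes RMA and MAS5 were used, with roles, versions and settings not given in the sources used here. Arrays carry no read depth; their number limits the precision.

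Probes were named through the platform annotation: 19460 had 1 symbol, 1754 several and 12083 none. Single-symbol probes were averaged per gene, and SiO2-NP minus control was computed. No test was possible with 1 array per group, and nothing in the labels names separate cultures. Named genes were every measured gene of the list, and up to 3 genes of each neighbouring list with the widest differences. Also named were the genes above the filter in the other SLC2A, SLC16A and isoenzyme lists, ACTB and TBP. The genes and lists were chosen with earlier results of these data known. Promoter windows came from RefSeq (GRCh38.p14); of 31 listed genes 28 matched. Alternatives covered the filter, scaling, probe rules and threshold. Steps were tested on simulated data. The software was pandas 2.3.3, NumPy 2.4.6 and matplotlib 3.10.9 under Python 3.11.15.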

Additional observations from a re-analysis of the deposited data

Results flagged for a closer look

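PGAM1, the phosphoglycerate mutase of the pathway, has no value above, because its probes are annotated to both PGAM1 and PGAM4. Those 5 probes, which the comparison did not use, were all above the control, by 0.06 to 0.11 with a mean of 0.0891 on the log2 scale. A pair of them held identical values, so 4 readings were distinct, and which of the genes they read was not tested.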

How the results depend on the processing

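The median of 0.06 over the 21 genes ranged from 0.05 (centring on the array medians) to 0.12 (quantile normalization). It was above 0 under each of the 7 alternatives run, but these were not independent checks. The filter at the 75th percentile and the brightest probe per gene gave the same 0.06, and only 1 measured gene had several probes. The median of all genes above the filter also moved, to -0.04 with centring and 0.01 with quantile normalization. The count past 1.2-fold was 2, against 5 without the level filter, where PFKFB1, PFKFB4 and LDHB joined, and 1 with the filter at the 75th percentile of gene means. Of all genes below the filter, 13.5% were at least 1.2-fold higher and 5.41% lower, beside 2.99% and 7.53% of those above it. The shares of all genes under the stricter filter are not given here. The count past 1.5-fold was 2, against 1 with that stricter filter, which removes ALDOC by its level, and 1 after centring on the array medians, where SLC2A3 fell short. At 2-fold 1 gene, ALDOC, was left on the deposited scale, and it fell just short (0.999) after centring on the array medians. The largest move of a single gene under the 3 scalings was 0.08. A move under 0.1 was taken as small, since no replicate spread exists. The planned pseudocounts were not run, as the table is already on a log2 scale. No paired analysis was possible because there was 1 array a group, and no replicate could be left out. Dim genes cannot be told from absent transcripts, because no detection calls were used here.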

Other observations

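Of 38 genes of the neighbouring lists that lay below the level filter, 4 were at least 1.2-fold higher on the SiO2-NP array and 1 was 1.2-fold lower, beside 13.5% and 5.41% of all genes below the filter. They were named after their values were seen. GYS2, liver glycogen synthase, was 4.15 and 4.65, a difference of 0.50, above the central 95% of the dimmest quartile (upper bound 0.46). SLC16A8, a lactate transporter known from the eye, was 7.02 and 7.39, a difference of 0.37. The glycerol channels AQP9 and AQP3 differed by 0.36 and 0.27, and ARRDC4, a relative of TXNIP, by -0.33. The last 4 lay inside the central 95% of their quartiles.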
